A study of Homo sapiens with 2 samples.

Results

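The MHC class I presentation genes examined here are 9 genes, matched to the array by gene symbol with no threshold on a measured value: *B2M*, *HLA-B*, *HLA-C*, *HLA-E*, *HLA-F*, *TAP1*, *TAP2*, *TAPBP* and *NLRC5*. They were chosen with earlier results of these data known. A transcript cluster, the set of probes that the array reads as 1 gene, carried the symbol of 8 of them, among 17687 distinct symbols in the platform annotation. *HLA-B* is unnamed in that annotation and has no value. Each of the 8 was read by 1 transcript cluster.

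The cells were VMRC-LCD, a lung adenocarcinoma line with neuroendocrine (NE) differentiation, transfected with si-*DRAIC*2, an siRNA against the long non-coding RNA *DRAIC*, or with si-NC, a negative control siRNA. Both siRNAs were given at 20 nmol/L for 72 h, and total RNA of each condition was hybridized to 1 Human Clariom S array. There is 1 line, 1 targeting siRNA and 1 array per condition. No difference therefore has a replicate check, no p-value is given, and transfection, culture and array cannot be told apart from the siRNA. The deposited log2 signals of 21448 transcript clusters are used as they stand. Each difference is si-*DRAIC*2 minus si-NC on the log2 scale, and a gene counts as past 1.5-fold, the threshold of the study's methods, where it exceeds 0.58 in size. No transcript cluster carries the symbol *DRAIC*, so the knockdown could not be checked on these arrays.

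MHC class I molecules show peptides from inside the cell to cytotoxic T cells and are read by natural killer cells. Proteasomes cut proteins into peptides, the TAP transporter carries these into the endoplasmic reticulum, and a loading complex places them on a heavy chain that is paired with beta-2-microglobulin. Interferons raise most of these genes together, through interferon-stimulated response elements in their promoters and through NLRC5, a transactivator that joins RFX, CREB and NF-Y proteins on class I promoters. Low class I levels are known in many NE lung tumors.

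The promoters of the members show what they have in common in sequence. The RefSeq promoter table (GRCh38.p14) has windows from 250 bases before to 50 after a start for 7 of the 9 members, and none for *HLA-E* and *NLRC5*. The last 160 bases before the start are printed for the 6 measured members with a window, read 5′ to 3′ on the strand of the gene. *TAP1* has 2 windows, of which the first is shown. Capitals mark matches on either strand to GAAANNGAAA (the interferon-stimulated response element), TGACG (the core of a CRE) and CCAAT (the NF-Y box), where N is any base. The NF-κB motif GGGANTCCC was also searched and has no match in these stretches.
*B2M*, chr15:44711357-44711516, plus strand: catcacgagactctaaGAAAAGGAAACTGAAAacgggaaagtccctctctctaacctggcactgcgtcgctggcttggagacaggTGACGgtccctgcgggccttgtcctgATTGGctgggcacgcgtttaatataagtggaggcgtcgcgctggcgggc
*HLA-C*, chr6:31272093-31272252, minus strand: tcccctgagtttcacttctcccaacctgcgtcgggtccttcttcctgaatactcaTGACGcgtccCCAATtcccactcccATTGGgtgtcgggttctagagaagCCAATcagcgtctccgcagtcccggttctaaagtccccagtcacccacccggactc
*HLA-F*, chr6:29723274-29723433, plus strand: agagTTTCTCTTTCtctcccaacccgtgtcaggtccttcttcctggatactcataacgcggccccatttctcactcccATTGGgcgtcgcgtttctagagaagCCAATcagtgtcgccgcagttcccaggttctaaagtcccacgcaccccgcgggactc
*TAP1*, chr6:32853705-32853864, minus strand: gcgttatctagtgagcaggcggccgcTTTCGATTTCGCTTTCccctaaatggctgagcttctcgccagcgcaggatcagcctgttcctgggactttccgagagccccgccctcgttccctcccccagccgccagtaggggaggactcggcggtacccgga
*TAP2*, chr6:32838740-32838899, minus strand: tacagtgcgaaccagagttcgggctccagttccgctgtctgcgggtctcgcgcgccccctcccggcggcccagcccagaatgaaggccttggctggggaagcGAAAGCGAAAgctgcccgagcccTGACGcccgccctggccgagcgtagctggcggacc
*TAPBP*, chr6:33314079-33314238, minus strand: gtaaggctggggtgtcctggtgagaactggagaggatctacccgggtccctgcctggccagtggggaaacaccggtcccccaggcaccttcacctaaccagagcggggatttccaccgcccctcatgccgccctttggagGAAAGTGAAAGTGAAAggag

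The interferon-stimulated response element motif was found in the windows of *B2M*, *HLA-F*, *TAP1*, *TAP2* and *TAPBP*, 5 of the 6 measured members with a window. It was found in 3.57% of all 35116 windows of the same length. In *B2M*, *TAP1* and *TAPBP* it occurred as 2 overlapping matches. *HLA-C* has no match to these letters. TGACG, found in 24.6% of all windows, was present in *B2M*, *HLA-C* and *TAP2*, and CCAAT, found in 34.6%, in *B2M*, *HLA-C*, *HLA-F* and *TAP1*, in the last of these outside the printed stretch. A match is a description of the letters and not a measured site. The window of *HLA-B*, the member without a signal here, has no match to the response element either. It holds the core of a CRE and the NF-Y box. It also holds the NF-κB motif, which 0.877% of all windows hold.

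None of the 8 members passed 1.5-fold in either direction, against 11.4% of all transcript clusters. The share was 8.36% among clusters at or above the median signal, where all measured members but *TAP1* and *NLRC5* lie. In the whole table, 5.13% were higher and 6.26% lower past 1.5-fold. The differences of the members ran between −0.24 and 0.40, with a median of 0.30, and the median over all transcript clusters was −0.011. Since the members were chosen with earlier results of these data known, their contrasts with all clusters are descriptions only. As deposited, 6 of the 8 members were above 0, compared with 48.4% of all transcript clusters, and with the difference of *HPRT1* subtracted from every cluster none of the 8 was, compared with 11.8% of all. *HPRT1*, the reference gene of the study's RT-qPCR, had a log2 signal of 11.89 in si-*DRAIC*2 and 11.49 in si-NC, a difference of 0.40. This subtraction is a constant shift larger than any member's difference, so it puts every member below 0 by construction, between −0.64 and −0.0049. The members kept their signs after a loess on mean signal. An offset added to both linear signals cannot change a sign. Setting the median difference of −0.011 to 0 could not either, since the smallest member difference was −0.073 (*TAPBP*).

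**Figure D1:**
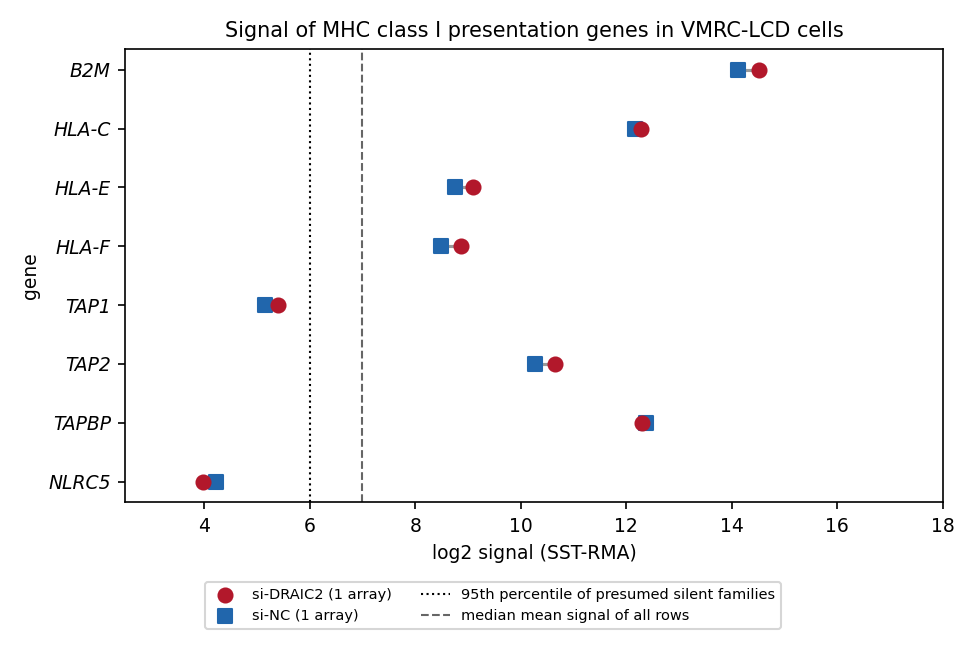
Log2 signal (horizontal axis) of the 8 measured members (rows) in the si-*DRAIC*2 array (circles) and the si-NC array (squares). The dotted line is the 95th percentile of presumed silent families (6.0), the dashed line the median of all transcript clusters (6.99), and in every row the symbols lie within 0.40 of each other.

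*B2M*, which encodes beta-2-microglobulin, the light chain shared by all class I molecules, had a log2 signal of 14.51 in si-*DRAIC*2 and 14.11 in si-NC. The difference was 0.40, or 1.32-fold, and 0.34 after a loess on mean signal was subtracted. To show how far genes of like brightness moved between these arrays, each member is placed beside the 1000 transcript clusters nearest in mean signal. The middle 90% of these ran from −0.36 to 0.42 around *B2M*, which lies inside the upper end.

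The classical heavy chain gene *HLA-C*, whose product presents peptides to T cells and is a ligand of killer cell receptors, had 12.27 in si-*DRAIC*2 and 12.17 in si-NC, a difference of 0.10. *HLA-E*, a non-classical heavy chain that shows leader peptides of other class I chains to natural killer cells, had 9.09 in si-*DRAIC*2 and 8.75 in si-NC, a difference of 0.35. *HLA-F*, another non-classical heavy chain, had 8.87 in si-*DRAIC*2 and 8.48 in si-NC, a difference of 0.39 or 1.31-fold. All 3 lay inside the range of genes with a similar signal, which was −0.66 to 0.54 for *HLA-E*, −0.67 to 0.54 for *HLA-F* and −0.44 to 0.47 for *HLA-C*. *HLA-G*, a non-classical heavy chain known from the placenta and no member of the set, had 9.44 in si-*DRAIC*2 and 9.48 in si-NC, a difference of −0.042. The heavy chain genes are close relatives with many alleles, and how well the probes tell them apart in this line is not given in the sources used here.

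*TAP1* and *TAP2* together encode the peptide transporter. *TAP2* had 10.64 in si-*DRAIC*2 and 10.27 in si-NC, a difference of 0.37 or 1.30-fold. *TAP1* had 5.39 in si-*DRAIC*2 and 5.14 in si-NC, a difference of 0.25. Signals of different probe sets are not on 1 scale, so these values do not rank the subunits, but *TAP1* lay below a level of 6.0 on both arrays. That level is the 95th percentile of the mean signal of 493 genes presumed silent in this line, from families such as odorant and taste receptors, keratin-associated proteins and beta-defensins. Differences of genes below it are given as values only. *TAPBP*, which encodes tapasin, the bridge between the transporter and the heavy chain, had 12.30 in si-*DRAIC*2 and 12.37 in si-NC, a difference of −0.073. The similar-signal ranges were −0.74 to 0.67 for *TAP1*, −0.62 to 0.49 for *TAP2* and −0.42 to 0.49 for *TAPBP*, and all of these genes lay inside.

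*NLRC5*, the transactivator of class I genes, had 3.97 in si-*DRAIC*2 and 4.21 in si-NC. Both values lie below the level of the presumed silent families, as for *TAP1*, and the difference of −0.24 lies inside the similar-signal range of −0.72 to 0.67. Among the 6 members above that level, the median difference was 0.36.

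**Figure D2:**
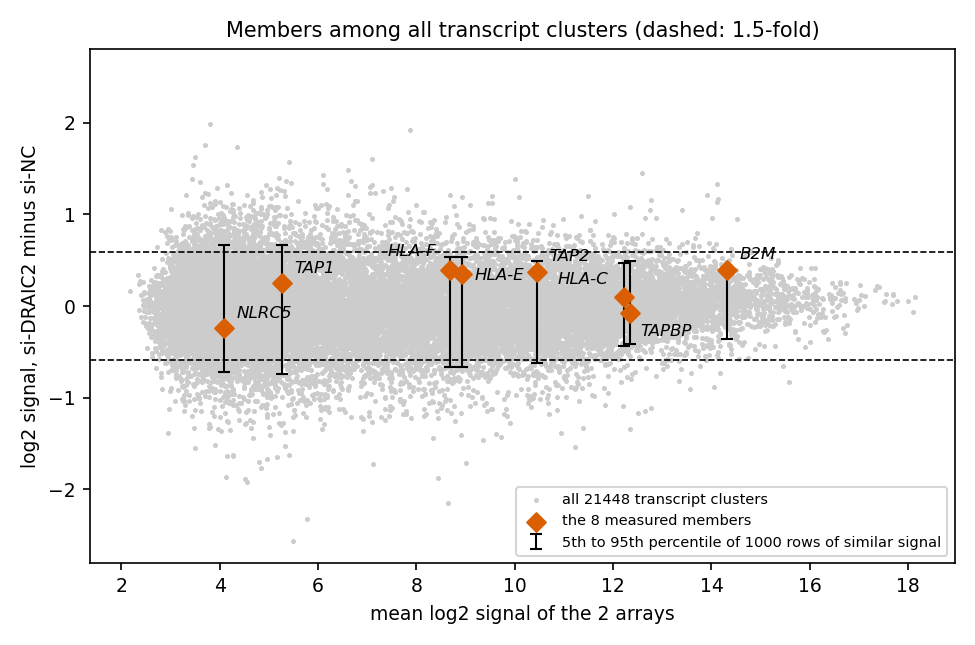
Difference in log2 signal, si-*DRAIC*2 minus si-NC (vertical axis), against the mean log2 signal of the arrays (horizontal axis) for 21448 transcript clusters (grey) and the 8 measured members (diamonds). Vertical bars span the 5th to 95th percentile of the 1000 transcript clusters nearest in mean signal, dashed lines mark 1.5-fold, and every member lies inside its bar and between the dashed lines.

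The rest of the class I pathway was followed in lists by role. These lists were chosen with earlier results of these data known, so their shares past 1.5-fold are descriptions only. Together with the members, 65 of 74 listed genes were measured, of which 4 were higher and 6 lower past 1.5-fold (15.4%, against 11.4% of all transcript clusters), with a median difference of 0.060. All 10 of these were among the 57 measured genes that are not members. In the loading complex, *TAPBPL*, which encodes a tapasin-like peptide editor, had a log2 signal of 6.42 in si-*DRAIC*2 and 7.04 in si-NC and was 1.54-fold lower. With 32 added to both linear signals it no longer passed 1.5-fold (−0.48). The lectin chaperone genes *CALR* (−0.025) and *CANX* (0.25) and the oxidoreductase gene *PDIA3* (0.11), whose products assist heavy chain folding, lay within 1.5-fold.

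Peptides are produced by proteasomes and peptidases. Of 5 measured genes of the immunoproteasome and its activator, 2 were higher and none lower past 1.5-fold (40%, against 11.4% of all transcript clusters). *PSMB8*, a catalytic subunit of the immunoproteasome, had a log2 signal of 9.30 in si-*DRAIC*2 and 8.44 in si-NC and was 1.82-fold higher, outside the range of genes with a similar signal. *PSME1*, a subunit of the PA28 proteasome activator, had 9.17 in si-*DRAIC*2 and 8.48 in si-NC and was 1.61-fold higher. *PSMB10*, another immunoproteasome subunit (0.060), and *POMP*, a proteasome assembly factor (0.098), lay near 0, and *PSMB9* (0.25) lay below the level of the presumed silent families. The constitutive counterparts of these subunits, *PSMB5*, *PSMB6* and *PSMB7*, had differences of 0.23, 0.25 and 0.26. In peptide trimming, 6 of 7 measured genes lay within 1.5-fold, the aminopeptidase gene *ERAP1* of the endoplasmic reticulum (−0.17) among them. *LAP3*, a cytosolic leucine aminopeptidase gene, had 11.13 in si-*DRAIC*2 and 11.82 in si-NC and was 1.62-fold lower.

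**Figure D3:**
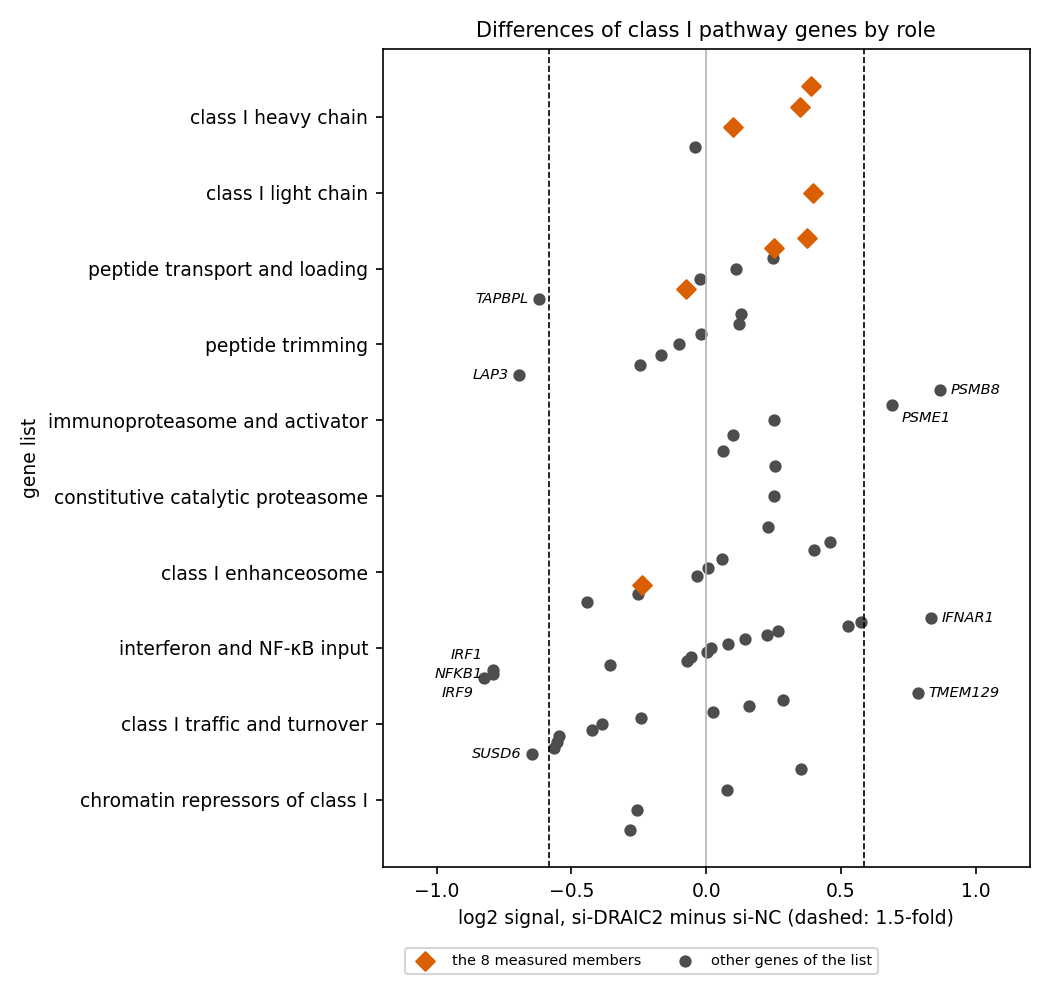
Difference in log2 signal, si-*DRAIC*2 minus si-NC (horizontal axis), of the measured genes in 10 class I pathway lists (rows), with members as diamonds and other genes as dots, 1 array per condition. Dashed lines mark 1.5-fold, and the 10 genes past them are named, 4 on the higher side and 6 on the lower side.

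None of the 8 measured genes of the class I enhanceosome passed 1.5-fold, beside 11.4% of all transcript clusters. Of the partners of *NLRC5*, the RFX subunit gene *RFX5* had a difference of −0.44, *RFXAP* 0.060 and *RFXANK* 0.0076, the NF-Y genes *NFYA*, *NFYB* and *NFYC* had −0.034, −0.25 and 0.46, and *CREB1* had 0.40. Genes for subunits of 1 complex lay on both sides of 0 as deposited, some of them near 0. Each of these genes lay inside the range of genes with a similar signal.

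Of 15 measured genes that carry interferon and NF-κB signals toward class I promoters, 1 was higher and 3 lower (26.7%, against 11.4% of all transcript clusters). *IFNAR1*, a chain of the type I interferon receptor, had 11.95 in si-*DRAIC*2 and 11.11 in si-NC and was 1.78-fold higher. *IRF9*, which guides the interferon-activated STAT complex to response elements, had 6.46 in si-*DRAIC*2 and 7.29 in si-NC and was 1.77-fold lower. *NFKB1*, which encodes the p50 subunit of NF-κB, had 9.86 in si-*DRAIC*2 and 10.65 in si-NC and was 1.73-fold lower, while *RELA*, the gene of its partner p65, differed by 0.0035. *IRF1*, a transcription factor that binds response elements of class I genes, was 1.73-fold lower, but with 4.69 in si-*DRAIC*2 and 5.48 in si-NC it lay below the level of the presumed silent families. *IRF2*, often an antagonist of *IRF1*, had 0.57 and the kinase gene *JAK1* 0.53, just inside 1.5-fold. Both lay outside their similar-signal ranges, *IRF2* narrowly (0.573 against an upper end of 0.569) and *JAK1* with an upper end of 0.46. The interferon gamma receptor genes *IFNGR1* and *IFNGR2* had −0.057 and 0.14.

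Genes with the response element motif were examined as a whole. Of 589 named genes with GAAANNGAAA in a promoter window, 44 were higher and 30 lower past 1.5-fold (12.6%), with a median difference of 0.014. Of 13661 named genes with a window and no match, 668 were higher and 811 lower (10.8%), with a median of −0.011. Of 21 interferon-stimulated genes such as *ISG15* (0.11), *MX1* (0.015) and *IFIT1* (0.51), 3 were higher and none lower. That is 14.3%, against 11.4% of all transcript clusters in either direction. Of the 21, 15 lay below the level of the presumed silent families. The higher ones were *GBP2* (6.92 in si-*DRAIC*2 and 5.86 in si-NC) and, below that level, *IFI27* and *OAS1*.

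Among 11 genes of class I traffic and turnover, 1 was higher and 1 lower past 1.5-fold, beside 11.4% of all transcript clusters in either direction. *SUSD6*, which with *TMEM127* and *WWP2* sends class I molecules to lysosomes, had 9.35 in si-*DRAIC*2 and 9.99 in si-NC and was 1.57-fold lower, while *TMEM127* had a difference of 0.16 and *WWP2* 0.29. *TMEM129*, a ubiquitin ligase that a cytomegalovirus protein uses to degrade heavy chains, had 8.02 in si-*DRAIC*2 and 7.24 in si-NC and was 1.72-fold higher. *UGGT1* (−0.55), which checks the folding of glycoproteins, and *SYVN1* (−0.56), a ligase of endoplasmic reticulum degradation, lay just inside 1.5-fold. Both lay outside their similar-signal ranges, with lower ends of −0.41 for *UGGT1* and −0.52 for *SYVN1*. None of 4 measured chromatin repressor genes of class I passed it, and *EZH2*, the methyltransferase of the Polycomb complex, had a difference of −0.28.

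Of the 8 measured members, 6 lie in the MHC region, taken here as the genes from *HLA-F* to *TAPBP* on chromosome 6 in the RefSeq order. Their 94 measured neighbours included 3 higher and 11 lower genes (14.9%, against 11.4% of all transcript clusters) with a median difference of −0.038. Of the 14 genes past 1.5-fold, 7 lay below the level of the presumed silent families, *LY6G6E* (−1.27), *B3GALT4* (−1.14) and *LTA* (−0.75) among them. The 5 lower ones above it were *WHR1* (−0.92), *C6orf47* (−0.91), *ZBTB12* (−0.79), *FKBPL* (−0.61) and *TCF19* (−0.61). The higher ones were *PSMB8*, *MICB* (0.64) and *HLA-DRB5* (0.91), and *HLA-DRB5* and its close relative *HLA-DRB1* (−0.61), both below the level of silent families, differed in sign and are uncertain, since probes can be shared between near-identical genes. *TAP2*, *PSMB8*, *TAP1* and *PSMB9* are neighbours and had differences of 0.37, 0.87, 0.25 and 0.25. The antisense gene *PSMB8-AS1*, which overlaps *PSMB8* and *TAP1* in the RefSeq annotation, had a difference of −0.55, at 4.63 in si-*DRAIC*2 and 5.18 in si-NC, and whether the probes tell the strands apart is not given in the sources used here.

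**Figure D4:**
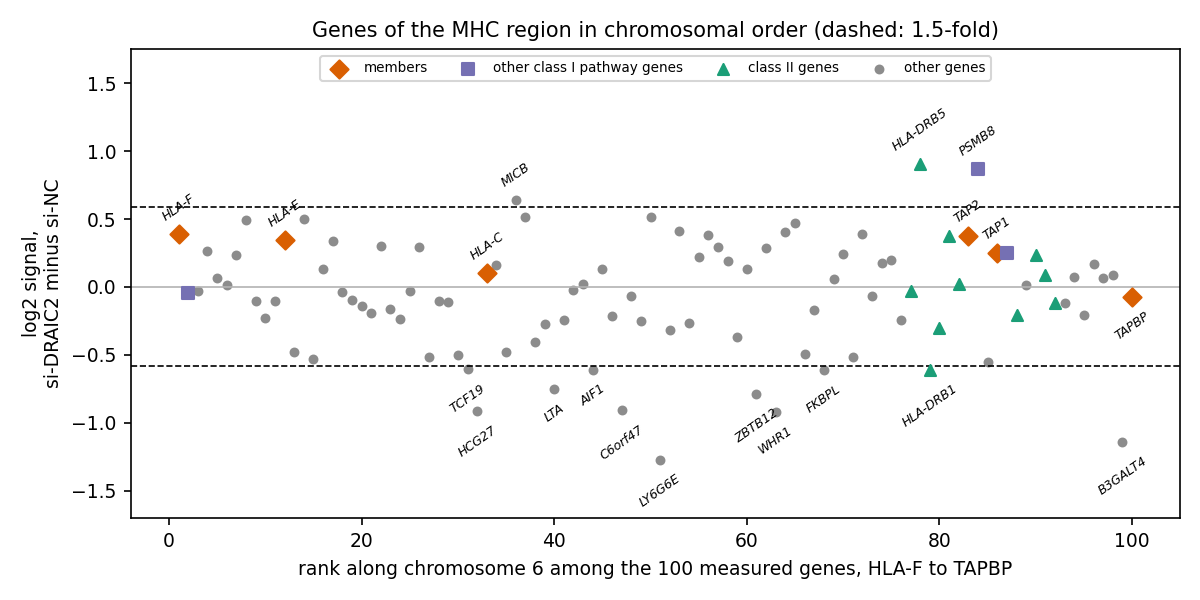
Difference in log2 signal, si-*DRAIC*2 minus si-NC (vertical axis), of 100 measured genes from *HLA-F* to *TAPBP* by rank along chromosome 6 (horizontal axis), with members, other class I pathway genes, class II genes and other genes as separate symbols. Dashed lines mark 1.5-fold, with 3 genes above and 11 below, and the 6 members of the region lie between −0.073 and 0.39.

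Markers of other cell types were read beside the members. Of 8 measured leukocyte markers, 7 lay below the level of the presumed silent families, *PTPRC* (0.019) and *CD3E* (0.018) among them, *MS4A1* was lower (−0.62), and the summed linear signal of the 8 was 265 in si-*DRAIC*2 and 242 in si-NC. The part of other cells in the class I signals was not tested. *CSF1R* (6.42 in si-*DRAIC*2 and 6.06 in si-NC) was the other one. Of 12 measured class II genes, 11 lay below that level, among them *CD74* (−0.0086) and the class II transactivator gene *CIITA* (0.31). Of 5 measured fibroblast and endothelial markers, *COL1A2* lay above it, and their summed linear signal was 458 in si-*DRAIC*2 and 550 in si-NC. All 5 measured NE markers lay above it, with a median difference of −0.25 and 4 of 5 below 0. Their summed linear signal was 55171 in si-*DRAIC*2 and 61730 in si-NC, and the NE transcription factor gene *INSM1* had −0.48, outside its similar-signal range of −0.41 to 0.43. The sums given for marker sets add signals that are not on 1 scale. They weigh the brightest gene of each set most, *CSF1R*, *COL1A2* and *CHGB*, and are not levels of a cell type. Of 5 epithelial markers, 4 lay above the level of silent families, and all 5 had differences above 0 as deposited, with a median of 0.24. For both marker sets, the share of all transcript clusters above 0 was 48.4%. The part of NE and epithelial state in the class I differences was not tested.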

How the data were processed

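A single Human Clariom S array was hybridized per condition, si-*DRAIC*2 and si-NC. Log2 signals were deposited, which the authors had computed from raw array files by Signal Space Transformation RMA in the Transcriptome Analysis Console (background correction, quantile normalization, probe summarization). Such a normalization hides a shift shared by all transcripts. The submitters' processing notes name RMA and that software. Its version, its annotation build and its filters: not given in the sources used here. Transcript clusters were named by the platform annotation, which leaves 3739 (17.4%) unnamed, and those of 1 symbol were averaged. The members and the gene lists were chosen with earlier results of these data known. Named genes were the members, each pathway list gene past 1.5-fold and the first genes of a list as examples. Other examples, and the named neighbours in the MHC region, were chosen after their values were seen. Promoter windows and gene order were taken from RefSeq tables (GRCh38.p14). With 2 arrays no likeness of pattern between genes can be measured. Alternatives were a median difference set to 0, a loess on mean signal (span 0.3), 32 added to linear signals, a 2-fold threshold, only rows above the level of silent families, the brightest row of a symbol and, added after seeing the data, subtraction of the *HPRT1* difference. The number of arrays limits the precision. The calling step was tested on simulated data. Python 3.11.15, numpy 2.4.6, pandas 2.3.3, statsmodels 0.14.6 and matplotlib 3.10.9 were used.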

Additional observations from a re-analysis of the deposited data

How the results depend on the processing

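No member passed 1.5-fold under any alternative planned for this report, and each of the 8 differences kept its sign wherever it had a value (*TAP1* and *NLRC5* have none with only rows above the level of silent families). Among these alternatives only the loess could have changed this. Each member has 1 row, so the brightest row is the same row. A 2-fold threshold cannot add a call, and the silent-level filter only drops rows. The offset keeps every sign and shrinks differences, and the median difference of −0.011 is too small to matter here. Under the added subtraction of the *HPRT1* difference, 1 member was lower past 1.5-fold (*NLRC5*), the members' median was −0.10, the pathway lists had 0 higher and 19 lower genes, and the MHC region had 0 higher and 34 lower. This subtraction lowers every transcript cluster by 0.40. The share of all clusters past 1.5-fold under it was not counted, so these counts are not a result about the members, the lists or the region. With a 2-fold threshold the pathway lists had 0 higher and 0 lower genes, the MHC region 0 higher and 2 lower, and all transcript clusters 131 higher and 213 lower, against 1100 higher and 1343 lower at 1.5-fold. With 32 added to both linear signals the MHC region had 4 lower genes, and all transcript clusters 373 higher and 521 lower. With only rows above the level of silent families, the MHC region had 5 lower genes and all rows 488 higher and 657 lower. With the offset of 32, *IRF1* (−0.41) and *TAPBPL* (−0.48) no longer passed 1.5-fold. No paired analysis was possible because each condition has 1 array, and no array could be left out.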

Other observations

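Class I-like genes, many of them ligands of the natural killer cell receptor NKG2D or carriers of lipid antigens, lay on both sides of 0. Of 18 measured, 1 was higher and 1 lower past 1.5-fold (11.1%, against 11.4% of all transcript clusters), with a median difference of 0.17. *MICB*, a stress-induced NKG2D ligand, had a log2 signal of 10.52 in si-*DRAIC*2 and 9.87 in si-NC and was 1.56-fold higher. *ULBP3*, another ligand of this receptor, had 5.77 in si-*DRAIC*2 and 6.65 in si-NC and was 1.83-fold lower, while *ULBP2* had a difference of 0.53, *MICA* 0.17 and *ULBP1* −0.12. *MR1*, which presents vitamin metabolites to T cells, had 0.35. All 5 checkpoint ligand genes lay below the level of the presumed silent families. Among them *CD274*, which encodes PD-L1, had 5.23 in si-*DRAIC*2 and 4.68 in si-NC, and *CD86*, a costimulatory ligand, was lower past 1.5-fold (−0.88).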
